A study of Rattus norvegicus with 6 samples.

Results

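The cells described here are rat brain cells rich in Cd74 that also carried Slpi, in single-cell libraries from control rats and from rats with acute carbon monoxide poisoning. Cd74 encodes the invariant chain, which escorts MHC class II molecules to the compartments where they load peptides. Slpi encodes a secreted inhibitor of serine proteases. Members were barcodes with at least 1000 unique molecular identifiers (UMIs, 1 per captured transcript), at least 10 UMIs of Cd74 and at least 1 of Slpi. At most 1 of Mrc1, Cd163, F13a1 and Pf4 (border macrophages), at most 1 of P2ry12, Tmem119, Gpr34 and P2ry13 (microglia) and at most 1 of Cldn5, Flt1, Dcn and Col1a1 (vessels and fibroblasts) could be detected, and no Cd79b (B cells) or Cd3e (T cells). Of the 15 exclusion genes 14 were used, and Cd79a was not analysed here. The rule found 54 of 34039 barcodes with at least 1000 UMIs.

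The study placed 3 libraries in each of its groups, from cerebral hemisphere dissociated with trypsin. Per the series description, 3 rats served each group. The control rats (NC) are labelled negative controls. Poisoned rats (CO) breathed carbon monoxide at 1000 ppm over 40 min and then at 3000 ppm over 20 min, and counted as poisoned on impaired consciousness and high carboxyhemoglobin. The sources used here give no strain, age or sex. The libraries held 39494470 to 47322264 UMIs each. Members had a median of 12634 UMIs in NC (4721 to 23882) and 12659 in CO (5189 to 23432), above the whole-series medians of 5348 and 6041.5.

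Dendritic cells take up antigen and present it to T cells on MHC class II molecules, and in the brain they sit mainly in the meninges and choroid plexus. The conventional type 1 subset uses Clec9a, a receptor for actin filaments exposed on dead cells, and Xcr1, a chemokine receptor, and presents material from dead cells to CD8+ T cells. Monocytes are blood phagocytes that can enter tissue and also raise MHC class II there.

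The 54 member barcodes were not 54 independent cells. Across the series, the genes detected in each barcode were compared with those of every other barcode by the Jaccard index, the number of genes in common over the number detected in either. Of the 34039 barcodes, 33694 (98.99%) had a partner in their own group at an index of at least 0.7. The median best index was 0.795, against 0.286 for the best match in the other group, whose highest value was 0.649. No barcode had a best index from 0.60 to 0.70. Linked barcodes formed sets of 2 or 3 and never more, and 88.35% of the 9450 sets of 3 held barcodes from more than 1 library. Only 1 full barcode name was shared between libraries over 15 pairs of libraries. The names hold more than the base sequence, so this is not a count of shared sequences. How these sets arose was not tested.

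**Figure D1:**
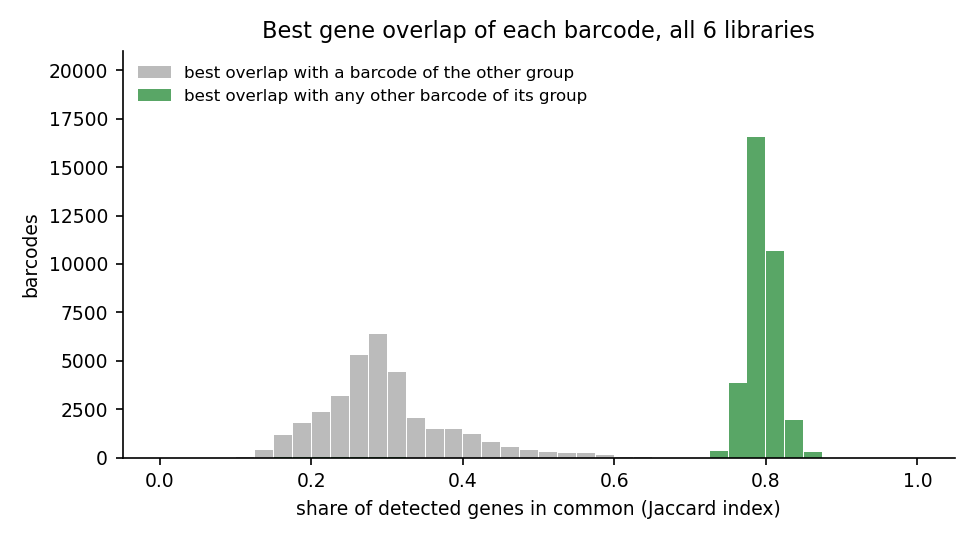
Number of barcodes (vertical axis) by the Jaccard index of their best match (horizontal axis), with matches in the same group in green and in the other group in grey. The same-group matches form a peak near the median of 0.795, apart from the other-group matches around 0.286.

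The members belonged to 23 sets, 11 of NC and 12 of CO, and 21 of the sets spanned several libraries. The same 23 sets were found at an index of 0.65 or 0.75. Those sets held 65 barcodes. Of the 11 that were not members, 8 missed the Cd74 minimum and 3 the Slpi minimum. Over 61 pairs of barcodes in a set, a mean of 4.2 positions held the same base (0 to 10), against 4.07 (0 to 10) in 2019 pairs from different sets. The barcodes of the set named CO Clec9a 1, which agreed pairwise at 3, 1 and 10 positions, are shown because they detected 3306, 3295 and 3294 genes. Read 5′ to 3′ in the order of those gene numbers, with the single position equal in all 3 in capitals, they were
Barcode in CO replicate 1: gtCataccctccatat
Barcode in CO replicate 3: cgCaacagagagccaa
Other barcode in CO replicate 3: cgCcacttagatgcta

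Within a set the genes detected were nearly the same, while their counts were not. The 42 pairs of member barcodes in a set had a median index of 0.813 (0.784 to 0.838), against 0.310 (0.178 to 0.401) in 263 pairs from different sets of the same group and class. Genes with at least 40 UMIs over a pair differed by a median of 0.83 on the log2 scale within sets and 1.48 between sets. In the set NC Clec9a 3 the 3 barcodes held 0, 7 and 245 UMIs of Cd74, and 297, 624 and 0 UMIs of Cst3. The squared difference of a pair's counts over their sum had a median of 6.5 within sets. Counting error alone gives this ratio a mean of 1 and a median below that. The libraries of a group were therefore not used as replicates. Each group counts as 1 sample, no p-value is given, and intervals below are exact 95% intervals that cover counting error only and are too narrow.

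**Figure D2:**
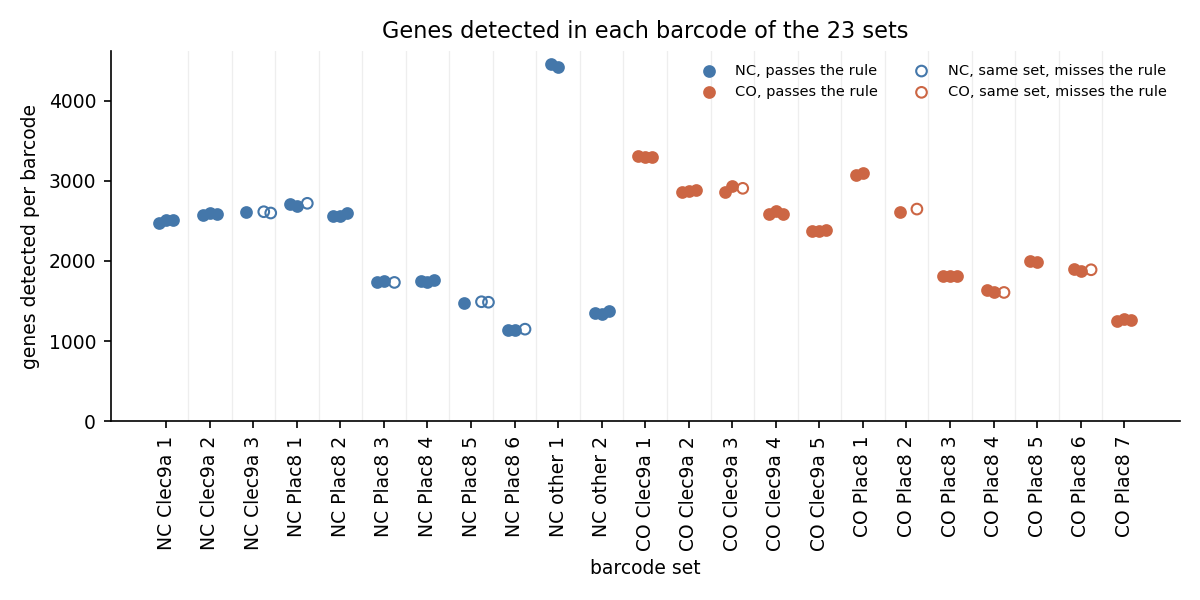
Genes detected per barcode (vertical axis) in the 23 sets (horizontal axis), filled for barcodes that pass the rule and open for barcodes of the same set that do not. Points of 1 set nearly coincide, while sets range from about 1134 to 4456 genes.

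The members made up 0.139% of NC barcodes (25 of 17943, Clopper-Pearson interval 0.0902% to 0.206%) and 0.180% of CO barcodes (29 of 16096, 0.121% to 0.259%). The NC libraries held 8, 8 and 9 members and the CO libraries 8, 6 and 15, so CO replicate 3 held the most. The ratio of shares, CO over NC, was 1.29 (0.731 to 2.30), and without CO replicate 3 it was 0.945. Counted as sets, the shares were 0.166% (11 of 6611) and 0.205% (12 of 5856). A difference in abundance was not detectable at this depth.

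Cd74 and Slpi chose the members, so their levels are a description. Cd74 ran from 23 to 506 UMIs per member barcode in NC (median 105) and from 13 to 642 in CO (median 99). Slpi ran from 1 to 396 (median 15) and from 2 to 208 (median 39). Just inside the Cd74 threshold, 1 member had 10 to 19 UMIs. Just outside it, 4 barcodes had 5 to 9 UMIs of Cd74 with Slpi. At the Slpi threshold, 3 members had 1 UMI, whereas 336 barcodes met the rest of the rule with no Slpi. Slpi was found in 0.127% of NC and 0.0789% of CO oligodendrocytes (median 9289 and 10076.5 UMIs), which should lack it.

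The label of dendritic-like cells held for only some of the members. The sets fell into 3 kinds, defined after their values were seen. In 8 sets (3 NC, 5 CO; 7 and 14 member barcodes) Clec9a was detected, and these are called Clec9a sets. Another 13 sets (6 NC, 7 CO; 13 and 15 barcodes) had Plac8 and no Clec9a, and are called Plac8 sets. The 2 remaining sets had neither, and both were NC (5 barcodes). The Clec9a barcodes were spread over all 6 libraries, with 3, 2 and 2 in NC and 3, 3 and 8 in CO.

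The Clec9a sets carried genes of conventional type 1 dendritic cells. Besides Clec9a itself (34 to 1583 CPM, UMIs scaled to a total of 1000000, median 383 over 8 sets), all 8 had Wdfy4, needed for cross-presentation, at 99.2 to 1640 CPM. All 8 had Irf8, the transcription factor of this lineage, at 655 to 3324 CPM, and the adhesion gene Cadm1 at 148 to 644 CPM. Xcr1 was detected in 5 sets, Flt3, the growth factor receptor of dendritic cells, in 7, the integrin gene Itgae in 7, and the dendritic factor Zbtb46 in 5. Other genes of the type 1 list were rarer, with Tlr3 in 3 of the 8 sets and Batf3 and Cd8a in 1 each. Clec10a, a lectin gene of the type 2 list, was detected in 7 of the 8 (182 UMIs, median 452 CPM). Cst3, which encodes cystatin C, stood at 22679 to 73488 CPM in 7 sets and at 0 in NC Clec9a 3, whose other barcodes held it.

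The Plac8 sets carried genes of monocytes. Clec9a, Xcr1, Cadm1, Flt3, Itgae and Zbtb46 were at 0 UMIs in all 13 sets. Wdfy4 was detected in 5 of the 13 (28 UMIs) and Irf8 in 3 (23 UMIs). Lyz2, the lysozyme gene of phagocytes, reached 1485 to 62835 CPM (median 17606), against 791 to 3729 in the Clec9a sets, so the ranges overlapped. Cd14, the lipopolysaccharide co-receptor, was detected in 10 of 13 sets, Vcan in 10, Fcnb in 9 and Fn1 in 8, and all 4 were at 0 in the 8 Clec9a sets. Cst3 stood at 105 to 2537 CPM. Over the 15 of 19 monocyte markers in the files used here, 12 had UMIs in members of any class. F10, Ace and Cd177 of this list were at 0 in all 13 Plac8 sets. Ly6c had 1 UMI, in CO Plac8 6, and Hp had at most 3 UMIs in a set.

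Few genes separated the classes completely. Of 2911 genes with at least 30 UMIs over the 21 sets, 20 (0.687%) were higher in every Clec9a set than in every Plac8 set, and 8 (0.275%) were lower in every one. The higher genes included Slamf7, a receptor of the SLAM family, at 136 to 1125 CPM against 0, and the membrane protein gene Basp1 at 296 to 3442 CPM against 0. Tmsb4x, which encodes the actin-binding thymosin beta 4, stood at 32679 to 162822 CPM against 4817 to 26025. The orphan nuclear receptor gene Nr4a2 stood at 819 to 3727 CPM against at most 709. The lower genes included S100a4 (0 against 607 to 2639 CPM) and S100a6 (0 against 806 to 15100), small calcium-binding proteins. Cebpb, a transcription factor of the monocyte lineage, stood at 0 to 79.2 CPM against 560 to 21036. Zeb2, a repressor, was at 0 against 26.3 to 9219 CPM. The classes were defined on these same sets, so these values describe them and test nothing.

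**Figure D3:**
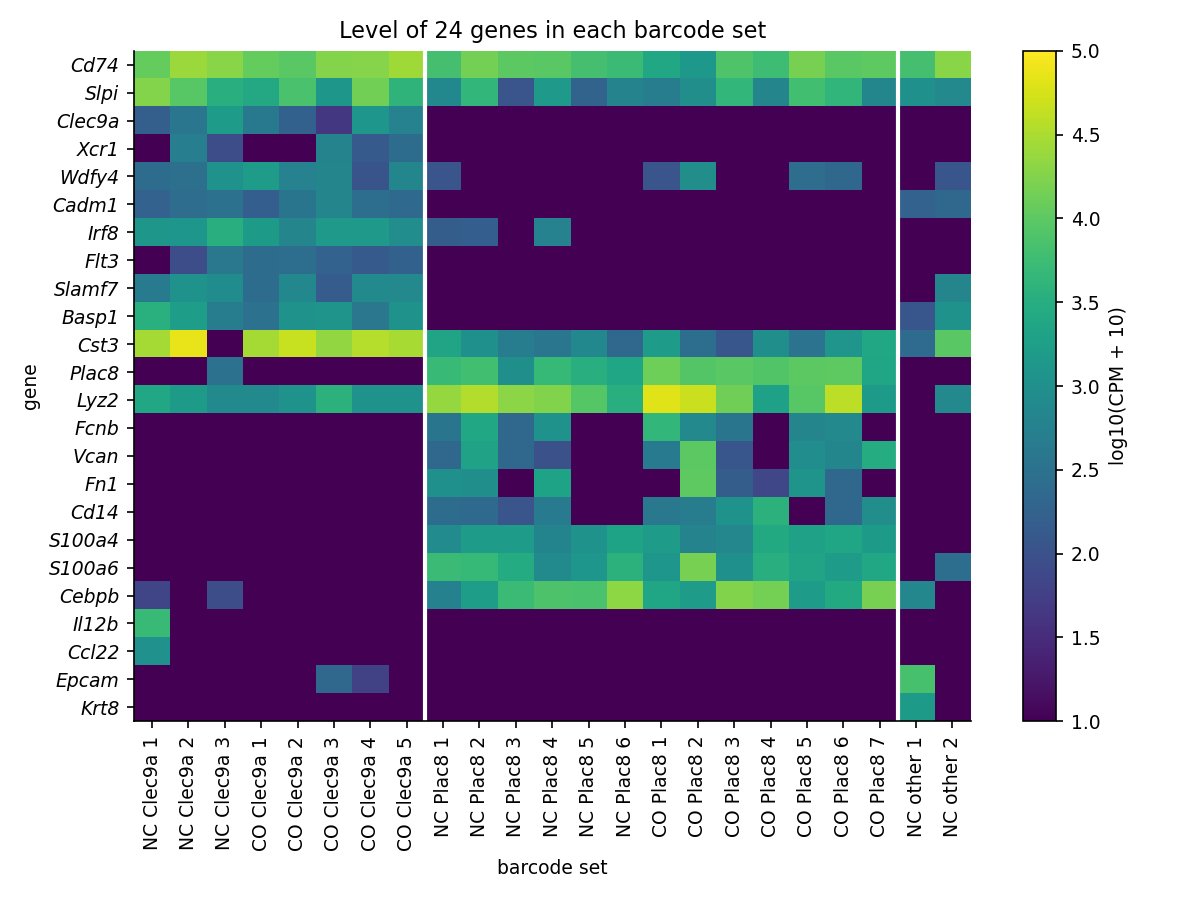
Level of 24 genes (rows) in each of the 23 barcode sets (columns), as log10(CPM + 10), with white lines between the Clec9a sets, the Plac8 sets and the 2 other sets. Cadm1, Flt3, Slamf7 and Basp1 are seen in Clec9a sets and not in Plac8 sets, and S100a4, S100a6 and Plac8 the reverse, except a low Plac8 value in 1 Clec9a set.

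Among the 2 other NC sets, NC other 1 (2 barcodes) carried epithelial genes. Epcam, an epithelial adhesion gene, had 91 and 224 UMIs in its barcodes, and Igfbp5, which binds insulin-like growth factors, had 917 and 180. It also held all 70 UMIs of the keratin gene Krt8 found in members. Lyz2 was at 0 in both barcodes. NC other 2 (3 barcodes) carried Fgl2, a fibrinogen-like gene, at 59, 49 and 29 UMIs, together with 4, 2 and 1 UMIs of Mrc1. NC Clec9a 1 stood apart from the other Clec9a sets. It held all 263 UMIs of Il12b, which encodes a subunit of interleukin 12, all 54 of the chemokine gene Ccl22, and 267 of the 336 UMIs of Cd63. Ccr7, the receptor that guides mature dendritic cells to lymph nodes, was at 0 in all 54 members.

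By the marker rule of at least 2 detected genes, type 1 genes (Xcr1, Clec9a, Cadm1, Wdfy4, Tlr3) marked 12 of 25 NC members in 6 sets and 14 of 29 CO members in 5 sets. Of the 6 NC sets, 3 were not Clec9a sets. The ratio of these shares was 1.01 (0.432 to 2.38). With 3 genes required, 7 of 25 NC members and 14 of 29 CO members were marked, all in Clec9a sets, a ratio of 1.72 (0.651 to 5.05). Type 2 genes (Clec10a, Irf4 and Sirpa among those in the files used here) marked 6 of 25 and 11 of 29, a ratio of 1.58 (0.536 to 5.20). Genes of mature dendritic cells marked 3 NC members, all of NC Clec9a 1, and 0 of 29 CO members. Counted as sets that is 0 of 12, which allows a share of up to 25% (3 counts of 12). Plasmacytoid genes marked 3 members in each group, with Siglech at 0 in both the Clec9a and the Plac8 sets. Cycling genes marked none of the 54.

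The members were set beside microglia, border macrophages and the 336 Cd74-high barcodes without Slpi. Clec9a had the largest smallest ratio over these populations in NC among genes at 100 CPM or more in both groups. It stood at 143 CPM in NC members against 2.07 CPM in Cd74-high Slpi-negative cells, 1.80 in border macrophages and 0.120 in microglia, where it had 0 UMIs in all 3 and was set to 3 counts. Clec9a had at least 1 UMI in 0 of the 336 Cd74-high Slpi-negative barcodes. Counted as sets that is 0 of 194, which allows a share of up to 1.55% (3 counts of 194). The next genes by this rule included Vcan (317 against at most 11.7 CPM) and Fcnb (457 against at most 65.6 CPM), a ficolin gene of monocytes. Rgcc, a cell cycle regulator, and Gadd45b, a stress-inducible gene, were also among the 20, with 781 and 3340 CPM in NC members, and 183 of the 229 Rgcc UMIs lay in NC Plac8 2. Of the 979 Gadd45b UMIs in NC members, 417 lay in NC Clec9a 1. In CO both genes stood near the Cd74-high Slpi-negative cells, Rgcc at 104 against 93.6 CPM and Gadd45b at 548 against 464 CPM. The ratios that ranked the genes used NC levels only, so genes raised by single NC sets could enter. These lower CO levels are therefore a description and test nothing. Of the 20 genes, Clec9a, Tubb2b and Slamf7 were seen in all 8 Clec9a sets and no Plac8 set. Vcan, Fcnb, Clec4d, Fn1 and Ass1 were seen in 8 to 11 Plac8 sets and no Clec9a set. The members held 50.6% of the Clec9a UMIs of all NC barcodes with at least 1000 UMIs and 68.8% of those in CO.

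CO members were then compared with NC members on summed counts. Of 3284 genes with at least 30 UMIs over both groups, 531 (16.2%) stood 2-fold or more above NC in CO with an interval that left out a ratio of 1, and 529 (16.1%) stood 2-fold or more below. The median log2 ratio of all genes was 0.06. Single sets gave many of these calls. More than 50% of a gene's UMIs lay in 1 set for 180 of the 529 lower genes (34.0%) and 50 of the 531 higher genes (9.42%), against 7.73% of all genes. With each set counted once, 193 genes were higher and 172 lower of 1596. Without CO replicate 3, which held 15 of the 29 CO members, 288 genes were higher and 504 lower of 2529.

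The genes farthest apart were mostly at 0 in 1 of the groups. The naming rule took 12 genes in each direction from the 782 (23.8%) whose libraries did not overlap between groups. This is no replicate check, since a gene of 1 set that spans libraries can pass it. In CO, Klrc3, a lectin-like receptor of the natural killer gene complex, had 92 UMIs against 0 in NC. It was at least 24.9-fold higher with 3 counts as the floor over the group, and at least 9.29-fold with each set counted once. Its UMIs lay in all 5 CO Clec9a sets and nowhere else. Smg6, an endonuclease gene of nonsense-mediated decay, had 64 UMIs against 0, in 7 of 12 CO sets. Slc39a6, a zinc transporter gene, had 35 UMIs against 0, in 8 sets, and Polk, a DNA polymerase gene, 37 against 0, in 6 sets. By contrast 96.4% of the Fabp4 UMIs, 91.9% of those of Il1r2 and 83.3% of those of Tlr1 lay in 1 set each. Tmtc2, Bin1, Calcrl, Dtx2 and Ift74 complete the 12, each at 0 in NC and seen in 3 to 6 CO sets.

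On the lower side, the endothelial growth factor receptor gene Kdr had 153 UMIs in NC and 0 in CO, with 92.8% of them in NC Clec9a 1. Serpinb9, a granzyme inhibitor gene, had 59 against 0, with 96.6% in the same set. Cmahp, Itga6, Irs2, Wwtr1 and Nfia each had 66.3% to 98.4% of their UMIs in NC other 1, the set with epithelial genes. The small heat shock gene Hspb1 was spread further, with 434 UMIs in 7 of 11 NC sets and 25 UMIs in 7 of 12 CO sets, a log2 ratio of -4.42 (-5.06 to -3.84). Of its NC UMIs 182 lay in NC Clec9a 2 and 132 in NC Plac8 3. Tppp3, Bambi, Slc38a1 and Mtus1 complete the 12, each at 0 in CO and seen in 3 or 4 NC sets.

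CO was next compared with NC inside the Clec9a sets. Of 1686 genes with at least 30 UMIs there, 452 (26.8%) stood 2-fold or more above NC in CO and 265 (15.7%) as far below. In 44 genes (2.61%) every CO set lay above every NC set and in 24 genes (1.42%) below. With only 3 NC and 5 CO sets, random order alone also places some genes fully apart. That share was not computed, so these counts are a description. NC Clec9a 1, the set with Il12b, had no counterpart with that gene in CO. Without it, 463 genes stood 2-fold or more above and 120 as far below of 1438. Leaving out a set cannot undo a complete separation, so the 44 and 24 genes necessarily stayed apart. With the 3 barcodes of these sets that missed the rule added, 35 of the 44 and 17 of the 24 stayed apart. The genes described next were chosen after their values were seen. Il1b, which encodes the inflammatory cytokine interleukin 1 beta, stood at 0, 237 and 1099 CPM in the 3 NC sets and at 1593 to 5980 CPM (median 3354) in the 5 CO sets. Its log2 ratio was 3.17 (2.74 to 3.64), and the sets did not overlap. The immediate early gene Egr1 stood at 174 to 475 CPM in NC and 857 to 3220 CPM in CO, a log2 ratio of 2.56 (1.99 to 3.18). With the non-member barcodes of the sets added, the highest NC set reached 850 CPM, next to the lowest CO set at 857 CPM. Errfi1, a feedback inhibitor of growth factor receptors, had 0 UMIs in the NC sets and 156 in the CO sets, at 102 to 2055 CPM in all 5. Gpr171, a G protein-coupled receptor gene, had 3 UMIs in NC and 143 in CO. The ribosomal protein genes Rps12 and Rps29 had log2 ratios of 1.90 and 1.88, also without overlap. With the non-member barcodes added the Rps29 sets overlapped, with a ratio of 0.90 (0.69 to 1.13).

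In the other direction, Gadd45b stood at 994 to 8063 CPM in the NC Clec9a sets and 0 to 983 CPM in the CO sets, a log2 ratio of -3.95 (-4.35 to -3.57). Of its 476 NC UMIs 417 lay in NC Clec9a 1, and without that set the ratio was -1.64 (-2.17 to -1.10). The interferon-stimulated gene Oasl had 57 UMIs in the 3 NC sets and 0 in the 5 CO sets. Ifi27, also interferon-stimulated, stood at 1583 to 1805 CPM in NC and 67.8 to 849 CPM in CO, a log2 ratio of -1.62 (-1.97 to -1.28). The Ifi27 sets overlapped once the non-member barcodes were added, with a ratio of -1.41 (-1.75 to -1.07). Rel, an NF-kappaB subunit gene, stood at 785 to 1644 CPM in NC and 369 to 780 CPM in CO, but its log2 ratio was 0.03 (-0.49 to 0.58) without NC Clec9a 1. The NC side rests on 7 barcodes of 3 sets, of which NC Clec9a 3 gave 1 barcode.

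Genes that define the type 1 subset overlapped between groups in the Clec9a sets. Clec9a stood at 155 to 1583 CPM in NC and 33.9 to 1264 CPM in CO, Irf8 at 1256 to 3324 and 655 to 1507 CPM, and Xcr1 at 0 to 497 and 0 to 610 CPM. Wdfy4 had a log2 ratio of 1.24 (0.73 to 1.78) and Clec10a, of the type 2 list, one of 1.46 (0.87 to 2.11), both with overlapping sets. Of the 225 Wdfy4 UMIs in the Clec9a sets 111 lay in CO Clec9a 1, while CO Clec9a 4 had the lowest level of all, 99.2 CPM. Havcr2, which encodes the inhibitory receptor TIM-3, had 3 UMIs in NC and 47 in CO, in all 5 CO sets. Of the NC UMIs 1 lay in NC Clec9a 2 and 2 in NC Clec9a 3, and in CPM the sets of the groups overlapped. The NC Clec9a sets held 102577 UMIs of all genes and the CO sets 222847. Il18 stood at 0 to 237 CPM in NC and 24.8 to 1167 CPM in CO. Of its 159 UMIs in the Clec9a sets, 75 lay in CO Clec9a 1 and 57 in CO Clec9a 2.

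In the Plac8 sets fewer genes lay fully apart between the groups. With 6 NC and 7 CO sets, random order separates a gene less often than with 3 and 5. This count therefore does not compare the classes, and the share that random order alone would give was not computed. Of 1468 genes, 294 (20%) stood 2-fold or more above NC in CO and 228 (15.5%) as far below, but 0 genes (0%) had every CO set above every NC set. The only gene (0.0681%) with every CO set below every NC set was Tsc22d3, a glucocorticoid-induced leucine zipper gene. It stood at 385 to 2642 CPM (median 964) in the 6 NC sets and 65.0 to 371 CPM (median 204) in the 7 CO sets, a log2 ratio of -2.46 (-3.02 to -1.94). In the Clec9a sets its ratio was 0.47 (-0.03 to 1.00), and the difference between the classes was not tested. Plac8 itself had a log2 ratio of 1.12 (0.98 to 1.27), at 984 to 6161 CPM against 2289 to 13134. Detection of Plac8 defined these sets, so its level in them is partly set by selection. Plac8 was also higher in CO outside the members, at 67.7 CPM in NC and 212 CPM in CO microglia. In oligodendrocytes its CPM was higher in CO as well. Its difference is therefore not specific to the Plac8 sets, and whether it is larger in them was not tested. The guanine deaminase gene Gda had 14 UMIs in NC and 263 in CO, seen in 5 of 6 and 7 of 7 sets. Hspa1b, an inducible chaperone gene, stood at 2598 to 24397 CPM in NC and 781 to 5626 CPM in CO, a log2 ratio of -1.48 (-1.63 to -1.34). Hsph1, its nucleotide exchange factor, had one of -2.76 (-3.10 to -2.43), with overlapping sets.

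**Figure D4:**
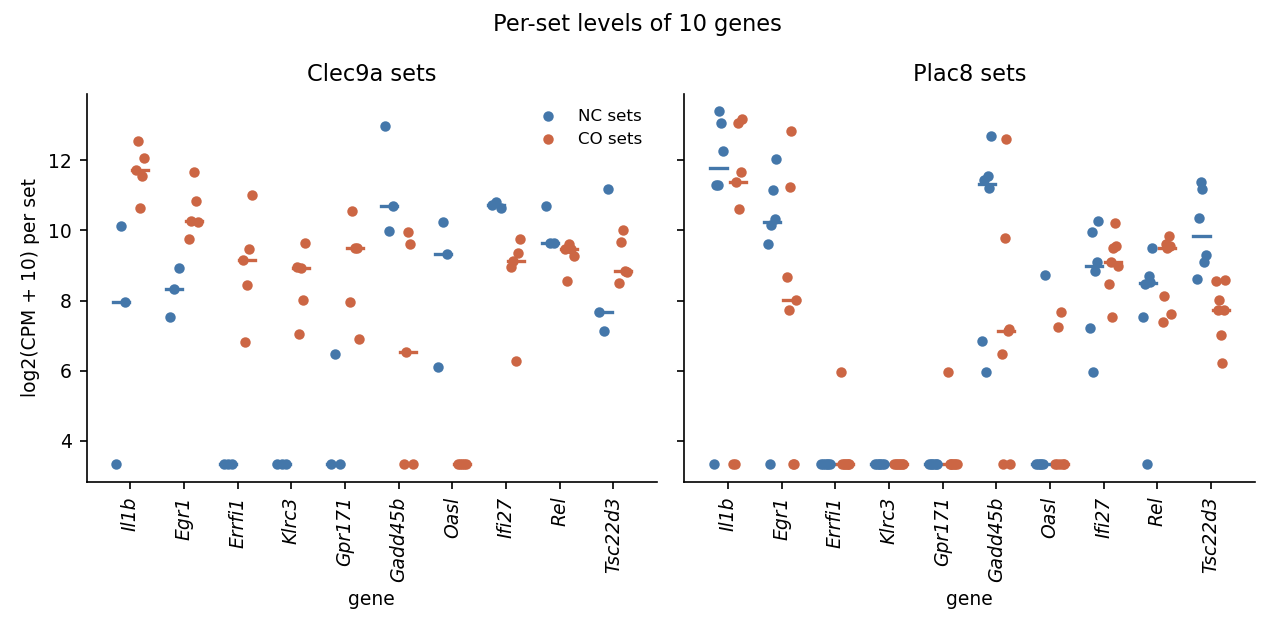
Levels of 10 genes as log2(CPM + 10) (vertical axis), 1 point per set with NC in blue and CO in orange and a bar at the median, for Clec9a sets (left) and Plac8 sets (right). In the Clec9a sets the CO points for Il1b, Egr1, Errfi1, Klrc3 and Gpr171 lie above all NC points, and in the Plac8 sets only the Tsc22d3 points separate.

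Gene lists gave few shared directions over all members, each read against the 16.2% and 16.1% of all genes. Of the 12 dendritic genes of any type with at least 30 UMIs, 5 were called higher and 3 lower (median log2 ratio 0.34). Flt3 had 8 UMIs in NC and 46 in CO, and Cst3 4633 and 7569. The 4 type 1 genes compared had a median of 0.83, with 2 called higher, Wdfy4 and Clec9a. Because 5 of 12 CO sets and 3 of 11 NC sets were Clec9a sets, the mix of classes enters these medians. Monocyte markers had 5 called higher and 1 lower of 10 (median 1.01), with the higher including Vcan (93 and 235 UMIs) and Gda. Of the Vcan UMIs, 81 of the 93 lay in NC Plac8 2 and 143 of the 235 in CO Plac8 2. Of 8 genes of mature dendritic cells 6 were called lower (median -2.64), among them Il12b, Ccl22 and Il4i1, which were seen in 1 NC set only. The antigen presentation lists had medians of 0.38 for MHC class II (3 higher and 2 lower of 9) and 0.34 for class I (1 higher and 0 lower of 11). The reductase gene Ifi30 had 167 and 268 UMIs, and the class I light chain gene B2m 2415 and 2465. Of 22 class II genes 10, and of 20 class I genes 6, were not analysed here. Costimulatory genes had a median of 0.01 (2 higher and 1 lower of 8), with Cd83 at 720 and 836 UMIs and Cd86 at 40 and 69.

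Of 15 chemokine and cytokine genes 3 were called higher and 7 lower (median -0.90). Il1b had 740 and 1286 UMIs, with a log2 ratio of 0.50 over all members that turned to -0.31 in the Plac8 sets alone. Ccl3, a chemokine for monocytes, had 352 and 884 UMIs, 880 of the latter in Plac8 sets. Of the 372 NC UMIs of Ccl2, 357 lay in NC Plac8 3. Of 11 pathogen sensors 5 were called higher and 1 lower (median 0.78). The higher ones included the inflammasome gene Nlrp3 (39 and 124 UMIs, in 6 of 11 and 12 of 12 sets) and Cd14 (28 and 133). The lower one, Ifih1, had all 95 of its NC UMIs in NC other 1. Migration genes had 3 higher and 1 lower of 10 (median -0.11), with Anxa1 at 268 and 234 UMIs and the chemokine receptor gene Cxcr4 at 271 and 225.

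Among 24 NF-kappaB components and targets 3 were called higher and 2 lower (median 0.11). Nfkb1, a subunit gene, had 202 and 588 UMIs. Of the latter 244 lay in CO Clec9a 1 and 238 in CO Plac8 3, and of the former 130 lay in NC Clec9a 1. Nfkbia, which encodes its inhibitor, had 1291 and 921. Interferon-stimulated genes had 2 higher and 5 lower of 18 (median -0.24). Of the 102 NC UMIs of Isg15 83, and of the 135 of Ifitm3 131, lay in NC other 1. Heat shock genes had 0 higher and 4 lower of 20 (median -0.31): Hspa1b, Hsph1, Hspb1 and the immunophilin gene Fkbp4. Immediate early genes had 3 higher and 1 lower of 23 (median 0.22). Fos, with the most UMIs of this list (2075 and 4001), stayed below 2-fold and was not called. The glucocorticoid-induced list had 3 higher and 2 lower of 14 (median -0.27).

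Carbon monoxide binds heme and limits oxygen delivery, so genes of hypoxia and heme handling were also counted. Targets of the hypoxia-inducible factors had 0 higher and 2 lower of 18 (median 0.01), the lower being P4ha1 and Vegfa, and 62 of the 64 Vegfa UMIs lay in NC other 1. Glycolysis genes had 2 higher and 0 lower of 10 (median 0.61). Of the 69 CO UMIs of the lactate exporter gene Slc16a3, 59 lay in CO Clec9a 1. Genes of heme, iron and oxidant defence had 2 higher and 2 lower of 16 (median -0.07). The ferritin heavy chain gene Fth1 had 1451 and 2869 UMIs. Hmox1, which encodes the inducible heme oxygenase, had 3 and 36, seen in 1 NC set and 3 CO sets. Of the 36 Hmox1 UMIs in CO, 25 lay in CO Plac8 2, a set with 1 member barcode. Efferocytosis genes, for clearing dead cells, had 1 higher and 5 lower of 13 (median -0.50). In the receptor axis of the cytokine CLCF1, named in the series title, 5 genes reached 30 UMIs, with Jak2 called higher (63 and 170) and Osmr lower, all 114 of its UMIs lying in NC other 1. Unfolded protein genes (0 higher, 1 lower of 16), lysosomal genes (1 and 2 of 18), antiproteases (0 and 3 of 8) and the S100, annexin and motility list (0 and 0 of 26) had medians of 0.13, -0.12, -0.48 and -0.10.

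Markers of other cell types were low in members, apart from those named above. Summed over each list, markers came to 47.8 CPM in NC and 357 in CO for border macrophages, 362 and 311 for microglia, 246 and 174 for neutrophils, and 75 and 81.7 for T and NK cells. B and plasma cell markers came to 71.6 and 106 CPM, mast cell markers to 23.9 and 68.1, and oligodendrocyte markers to 519 and 409. Astrocyte markers came to 212 and 10.9 CPM, erythroid to 471 and 259, fibroblast to 13.6 and 35.4, endothelial and mural to 13.6 and 10.9, and neuronal to 6.82 and 0. Of the 109 Mrc1 UMIs in CO members 100 lay in CO Clec9a 2. Choroid plexus and epithelial markers came to 2848 CPM in NC, 79.2 to 12998 over its sets, and 267 CPM in CO. Without NC other 1 and NC other 2, 523 genes were called higher in CO and 409 lower of 2911, against 531 and 529 of 3284 with them. The part of the other lists in the results was not tested. Transthyretin (Ttr), a secreted product of the choroid plexus, was at 798 and 212 CPM in members and at 8832 and 246 CPM in oligodendrocytes, where 93.2% and 81.2% of barcodes had a UMI. Plac8, by comparison, was in 0.826% and 0.868% of oligodendrocytes and Clec9a in 0% and 0.158%. In microglia Plac8 was far more frequent, in 15.2% of NC and 42.8% of CO barcodes, and Clec9a was in 0% and 0.0842%.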

How the data were processed

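Per the labels, 3 NC and 3 CO droplet libraries of rat cerebral hemisphere were made on the 10x Genomics platform. The authors deposited UMI counts without normalization, for 15227 genes in 42293 barcodes. The submitters' processing notes name Cell Ranger, with no version, and Rnor_6.0. Members and gene lists were chosen with earlier results of these data known.

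Barcode sets were built by linking barcodes of at least 1000 UMIs whose detected genes had a Jaccard index of at least 0.7. This was done after seeing the data. The planned edgeR fit over libraries was then not run. Member counts were summed per group and scaled with TMM factors (edgeR 4.0.16). Set levels are CPM over the member barcodes of a set, without TMM. Ratios carry exact binomial intervals (scipy 1.17.1, 95%), and a count of 0 was set to 3 over the group. CPM are UMIs per 1000000. Genes needed 30 UMIs. Calls needed a 2-fold ratio and an interval that left out 1. The ratio and its interval were tested on simulated counts with counting error only (Poisson). That simulation lacked the larger spread seen within sets, so it says nothing on how well the intervals cover here. No doublets were removed.

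Named genes were the 12 with the highest lower bound and the 12 with the lowest upper bound of the interval among those whose libraries did not overlap, the 20 with the largest smallest ratio over 3 other populations, and 2 to 4 per list. Genes outside this rule were chosen after their values were seen. Other populations were microglia and border macrophages (at least 3 of their rule genes) and oligodendrocytes (at least 4 of 5 markers).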

Additional observations from a re-analysis of the deposited data

How the results depend on the processing

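The share ratio stayed inside its main interval (0.731 to 2.30) under every alternative. Without Slpi in the rule, 217 NC and 173 CO barcodes gave 0.889. Leaving out 1 library gave 0.945 to 1.5, below 1 only without CO replicate 3. Leaving out 1 library gave 288 to 598 genes higher in CO (fewest without CO replicate 3) and 357 to 529 lower. With at least 10 UMIs per gene, 947 were higher and 1115 lower. With each cell thinned to 2000 UMIs, 58 were higher and 54 lower, of 549 genes compared. Chosen after seeing the data, each set counted once gave 193 higher and 172 lower, Clec9a sets 265 lower, and Plac8 sets 294 higher and 228 lower. The setting of 10 UMIs compared 6056 genes, and the thinned, set-once and single-class settings compared fewer than the main 3284. With all barcodes of the sets, 568 were higher and 565 lower of 3661. Inside the Clec9a sets, leaving out NC Clec9a 1 gave 120 lower, with 82 genes above and 65 below in every CO set. With 1 set fewer, a gene separates more easily. The type 1 and type 2 shares stayed inside their main intervals wherever both groups had such cells.

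Among 41 genes followed, 3 whose main interval left out a ratio of 1 changed direction. Sign changes of genes whose main interval held 1 were not counted. Lyz2 (main log2 ratio 0.24) was -0.30 without the highest 6% of Scrublet doublet scores, -0.40 to 0.67 over the settings that leave out 1 library (lowest without CO replicate 2), -0.16 with thinning, -0.13 without the 2 sets lacking Clec9a and Plac8, and -0.42 in Clec9a sets. Il1b (0.50) was -0.085 with thinning, -0.086 to 0.69 with 1 library left out (lowest without CO replicate 3), and -0.31 in Plac8 sets. Slpi (-0.32) was -0.64 to 0.010 with 1 library left out (highest without NC replicate 1) and 0.30 in Plac8 sets. The cause was not tested. Ratios with fewer than 10 UMIs were not computed.

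No paired analysis was possible because the comparison comes from no test. The planned edgeR and DESeq2 tests over libraries, with and without a replicate block, were not run, since barcodes of 1 set lie in different libraries of a group. The members rest on 11 NC and 12 CO distinct profiles from 1 sample per group, so the spread between animals is unknown.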
